A study of Mus musculus with 9 samples.

Results

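Potassium channel subunit genes were described in RNA sequencing libraries of mouse pancreatic islets, the endocrine clusters that hold the insulin-secreting beta cells. The genes were chosen by symbol: those starting with Kcn and a lower-case letter, without 2 antisense or overlapping transcripts. Of 46316 gene symbols in the deposited table, matches numbered 96, 2 of them antisense transcripts of Kcnmb4 that the rule did not catch. The floor of at least 10 counts in at least 3 of 9 libraries was met by 60 of the 96, and 59 of these 60 passed the filter of the test. The libraries come from 3 groups of 3: islets of db/+ mice, which carry the db mutation of the leptin receptor on 1 chromosome and received no drug, islets of untreated db/db mice, which carry it on both and become obese and diabetic, and islets of db/db mice given imeglimin and metformin, both oral glucose-lowering drugs. All 3 groups thus carry the db allele, and there is no group with 1 drug alone. The sources used here do not give age, dose, duration or how many mice went into each sample. Because separate animals are not stated either, p-values reflect the spread between samples as deposited, which may be technical.

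Potassium channels let potassium ions leave the cell and so hold the membrane potential of a beta cell negative at low glucose. When glucose is metabolised, the ATP-sensitive channel closes, the membrane depolarises, calcium enters and insulin is released; voltage-gated and calcium-activated channels then end each spike, and two-pore channels carry a background leak. Channels are built from pore-forming subunits, silent subunits that reach the membrane only inside another family's channel, and auxiliary subunits that set gating and traffic.

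Of the 96 symbols, 30 encode voltage-gated (Kv) pore subunits, 16 auxiliary subunits, 15 inward rectifiers, 14 two-pore channels, 10 silent Kv subunits and 8 calcium- or sodium-activated channels, with 1 other gene (Kcnrg, a regulator) and the 2 antisense transcripts making up the rest. The floor was met by 21 of the Kv pore genes, 12 of the auxiliary genes, 8 of the inward rectifiers, 9 of the two-pore genes, 3 of the silent genes and 7 of the calcium- or sodium-activated genes. In some genes every library at the floor was of the same genotype. This genotype was db/+ for Kcnj12 and db/db for Kcna5, Kcnc1, Kcnd3, Kcne4, Kcnj4, Kcnj15, Kcnq5 and Kcns3. The direction of these genes was thus favoured by the floor. Of the 36 symbols below the floor, 6 had 0 counts in every library, 32 stayed under 10 counts in each library and the highest single count was 14. Per library, all genes together held between 10292664 and 15281806 counts.

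Levels are TMM-normalised CPM, counts relative to the size of the library, and fold changes are given on the log2 scale with the standard error of edgeR's quasi-likelihood test, whose p was adjusted by Benjamini and Hochberg over 16761 genes. A gene was called when its adjusted p was under 0.05. The libraries carried differing amounts of RNA of other cell types, given beside the genes whose levels moved with them. Summed markers of acinar cells, the digestive-enzyme cells of the exocrine pancreas, held 49.2 to 144 CPM in db/+ libraries, 268 to 1774 in untreated db/db libraries and 151 to 352 in treated ones. Lymphocyte markers ranged over 15.4 to 18.8, 34.2 to 268 and 4.0 to 9.35 CPM in the same order. Of 10 beta cell markers, 7 were called lower and 1 higher in untreated db/db islets. In bulk islets, fewer cells of a type and less RNA per cell cannot be told apart.

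The genes at the extremes of the change were Kcnj12 and Kcns3, and the gene with the highest level was Kcnk16. Their promoters, 250 bases before to 50 bases after the annotated start, are given 5′ to 3′ from RefSeq on build GRCm38.p6. They were matched by symbol, and whether the transcripts counted start there was not tested. Capitals mark TGCTGA or its reverse complement TCAGCA, a half-site of the motif bound by MAF factors such as Mafa, whose own transcript went from 509, 545 and 555 CPM in db/+ to 12, 23.1 and 27.8 CPM in untreated db/db islets. The motif was chosen after the values were seen. Kcnj12 lies at chr11:61065554-61065853 on the + strand, Kcns3 has 2 starts at chr12:11150324-11150623 and chr12:11150793-11151092, and Kcnk16 lies at chr14:20269220-20269519, the last 3 windows on the - strand.
Kcnj12: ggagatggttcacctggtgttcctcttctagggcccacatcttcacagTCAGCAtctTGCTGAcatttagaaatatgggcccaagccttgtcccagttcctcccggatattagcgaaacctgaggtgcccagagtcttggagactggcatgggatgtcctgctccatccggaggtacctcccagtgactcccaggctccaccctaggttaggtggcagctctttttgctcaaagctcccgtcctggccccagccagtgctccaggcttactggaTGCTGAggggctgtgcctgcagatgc
Kcns3, first window: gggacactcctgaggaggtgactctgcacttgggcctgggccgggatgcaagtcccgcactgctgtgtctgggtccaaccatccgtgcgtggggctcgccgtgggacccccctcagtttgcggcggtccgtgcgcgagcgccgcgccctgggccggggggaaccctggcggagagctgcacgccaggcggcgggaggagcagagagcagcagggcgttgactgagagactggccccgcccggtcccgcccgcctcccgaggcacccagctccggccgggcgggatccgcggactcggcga
Kcns3, second window: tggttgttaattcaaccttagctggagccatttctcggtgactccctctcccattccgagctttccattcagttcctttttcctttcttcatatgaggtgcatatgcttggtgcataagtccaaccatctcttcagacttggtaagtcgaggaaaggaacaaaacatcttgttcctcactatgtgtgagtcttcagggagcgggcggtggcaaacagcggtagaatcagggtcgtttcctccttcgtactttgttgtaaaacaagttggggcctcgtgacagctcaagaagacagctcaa
Kcnk16: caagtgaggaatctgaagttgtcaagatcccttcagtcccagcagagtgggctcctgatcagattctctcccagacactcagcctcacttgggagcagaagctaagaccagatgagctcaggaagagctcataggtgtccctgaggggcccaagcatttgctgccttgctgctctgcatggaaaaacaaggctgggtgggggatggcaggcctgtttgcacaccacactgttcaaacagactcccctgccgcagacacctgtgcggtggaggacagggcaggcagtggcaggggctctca

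The Kcnj12 window held 3 matches to the motif on the 2 strands, and the windows of Kcns3 and Kcnk16 held none. A match says only that these letters are in the window. Across 32851 promoters in the RefSeq table, 19.5% held a match. Promoters were found for 43 of the 60 genes at the floor, and 10 of their 64 promoters (15.6%) held one. By gene, with any of its promoters counted, a match stood in 21.7% of the 27025 genes of that table. It stood in 3 of 7 genes called lower in untreated db/db islets (Kcnj12, Kcnh6 and Kcnip4), in 1 of 17 called higher (Kcnab2) and in 3 of 18 not called. The calls of Kcnh6 and Kcnab2 were lost in 10 and 3 of 18 alternatives and the direction of Kcnip4 depends on the transcript model, as given further on, so the counts by call are no more than a description.

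Untreated db/db and db/+ islets differed in most potassium channel genes, and in both directions. Of the 59 tested, 36 were called (61.0%), against 63.2% of all 16761 genes, so the share was near the background. Of these, 21 were higher (31.3% of all genes were called higher) and 15 lower (32% of all genes). These shares of all genes apply beside the counts by subfamily and by marker list as well. The median log2 fold change was 0.05 over the 59 genes and 0.02 over all genes, while the median size of the change, sign ignored, was 0.871 against 0.635. Members and all genes were not matched for count level, and some members held few counts, such as Kcnc1 with 0, 2 and 1 in db/+ libraries. With each gene represented by its highest curated transcript row, 24 genes were higher and 14 lower. The 3 libraries of untreated db/db islets did not overlap the 3 of db/+ islets in 33 of the 59 genes, against 67% of all genes.

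**Figure D1:**
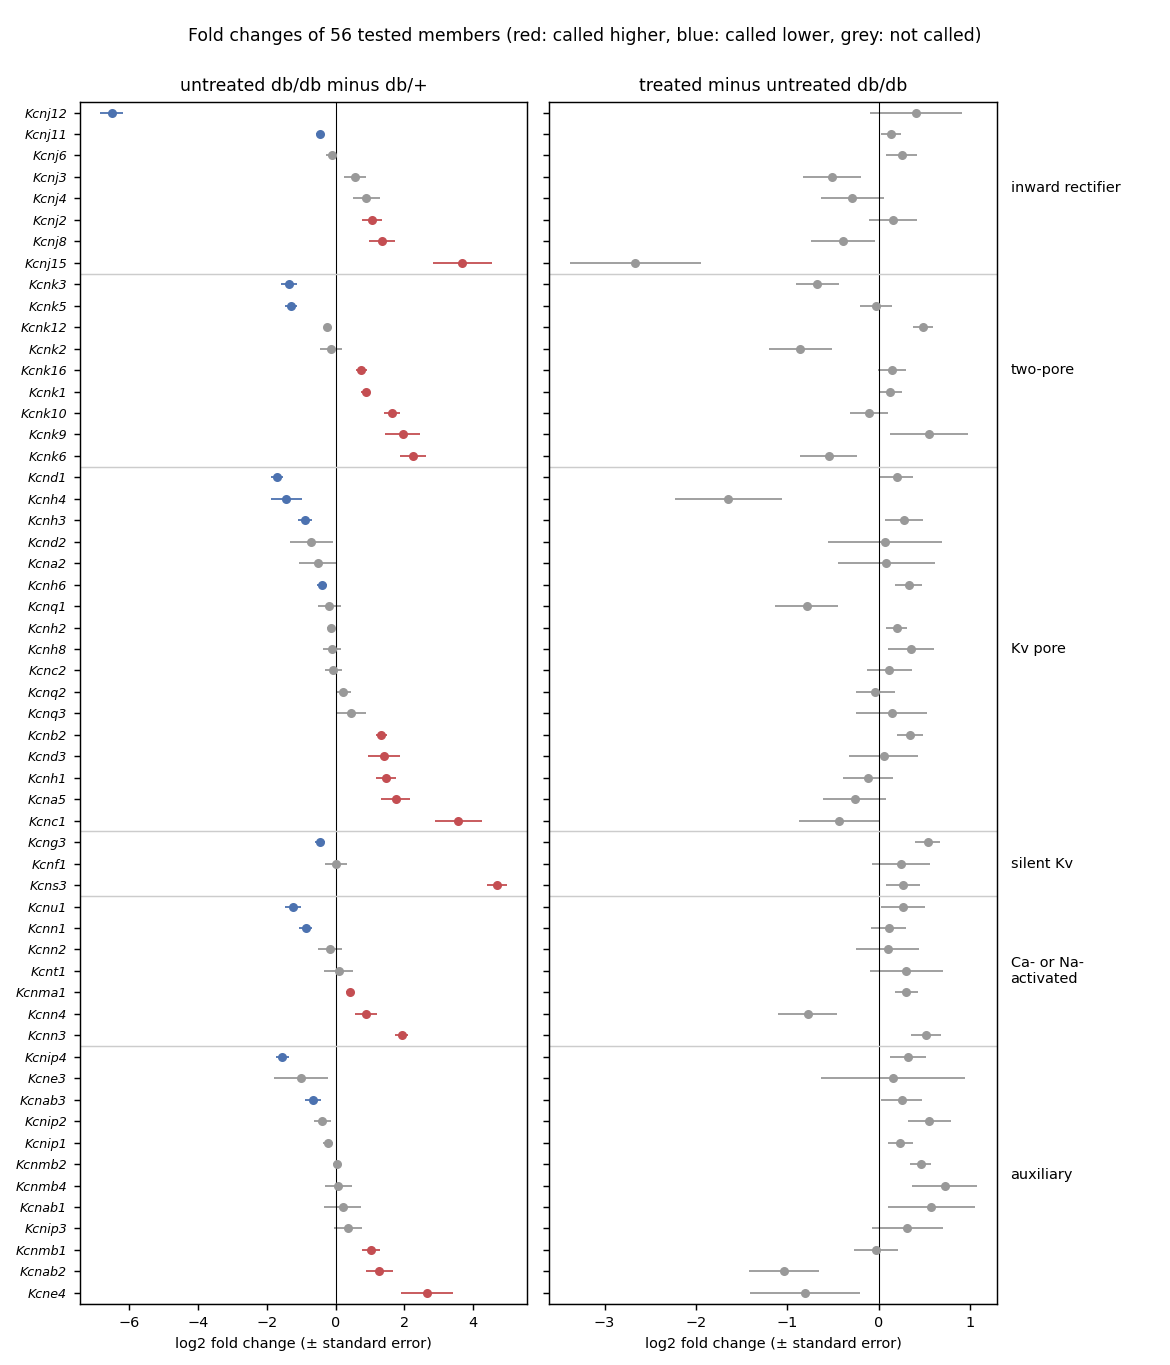
Log2 fold changes (x axis, points) with standard errors (bars) of 56 of the 59 tested potassium channel genes (y axis), grouped by subfamily, in untreated db/db against db/+ islets (left) and treated against untreated db/db islets (right). Red genes were called higher and blue genes lower; Kcnj12 (-6.52) and Kcns3 (4.70) are the extremes on the left, and no gene was called on the right.

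Among inward rectifiers, which pass current best near the resting potential, 3 genes were called higher, 2 lower and 3 were not called. Kcnj11 encodes the pore of the ATP-sensitive potassium channel of the beta cell and Abcc8 its sulfonylurea receptor subunit. Kcnj11 held 198, 169 and 156 CPM in db/+ islets, 115, 134 and 134 CPM in untreated db/db islets and 150, 143 and 128 CPM in treated ones. Every library of untreated db/db islets lay below every db/+ library, and the treated libraries also lay below db/+ and overlapped the untreated ones. The log2 fold change of Kcnj11 was -0.45 ± 0.11 in untreated db/db against db/+ islets (adjusted p = 0.00376) and -0.32 ± 0.11 in treated db/db against db/+ islets (adjusted p = 0.0253). Without db/+ replicate 1 the first value was -0.26 (adjusted p = 0.0325). The second call was lost in 4 of 18 alternatives, without the filter on low counts, db/+ replicate 1 or treated replicates 2 or 3, where the adjusted p reached 0.134. Abcc8 fell too, by 0.83 ± 0.14 on the log2 scale (adjusted p = 0.000162). The ratio of length-scaled Kcnj11 to Abcc8 levels was 0.301, 0.225 and 0.185 in db/+, 0.310, 0.292 and 0.305 in untreated and 0.302, 0.311 and 0.308 in treated db/db libraries. The db/+ ratios spread widely and their highest value lay within the db/db values.

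Kcnj12, a strong inward rectifier known from heart and skeletal muscle, showed the lowest fold change among the 59 genes. It held 29.4, 27.5 and 27.6 CPM in db/+ islets and 0.365, 0.315 and 0.213 CPM in untreated db/db islets. Treated db/db islets held 0.0705, 0.523 and 0.581 CPM. The db/+ libraries lay far above all 6 db/db libraries, and the untreated and treated libraries overlapped. In counts, the db/+ libraries held 297, 270 and 278, the untreated ones 5, 5 and 3 and the treated ones 1, 8 and 9. Kcnj12 thus met the floor only through db/+ libraries, so the floor favoured a fall in it. The log2 fold change of Kcnj12 was -6.52 ± 0.33 (adjusted p = 3.38e-08) in untreated and -6.11 ± 0.32 (adjusted p = 2.42e-08) in treated db/db against db/+ islets. Scaled by transcript length, Kcnj12 stood at 3.38 CPM per kilobase in db/+ islets and ranked 59th of the 60 genes in treated ones.

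Kcnj15 went the other way. This inward rectifier held 0.396, 0.306 and 0.199 CPM in db/+ islets, 8.19, 1.95 and 1.85 CPM in untreated db/db islets and 0.282, 1.24 and 0.323 CPM in treated ones. Untreated replicate 1 stood far above the rest, and the treated libraries overlapped db/+ but not untreated db/db. Kcnj15 met the floor only through db/db libraries, so the floor favoured a rise in it. The log2 fold change of Kcnj15 was 3.69 ± 0.85 against db/+ (adjusted p = 0.00387), and 2.64 without untreated replicate 1 (adjusted p = 0.00301). The library that stood apart had the highest sum in 3 marker lists of cell types that are not endocrine. Its sum of alpha cell markers was also the highest. That sum was 20870, 20420 and 16030 CPM in the untreated libraries, of which Gcg held 18830, 17590 and 13350 CPM. The summed acinar markers held 1774, 268 and 1028 CPM in the untreated libraries, and all 12 were detected in db/+ libraries. The 12 lymphocyte markers held 268, 39.8 and 34.2 CPM, with 4 at 0 in every db/+ library. The 8 macrophage markers held 886, 310 and 379 CPM, with none at 0. Of this sum, Cd74 alone held 686, 152 and 197 CPM. Lyz2 and Cd68 were also highest in untreated replicate 1, whereas Csf1r, C1qa, C1qb, C1qc and Adgre1 were not. Kcnj15, the lymphocyte markers and the alpha cell markers had the same order over the 3 untreated libraries. The acinar and macrophage lists did not. The part of these cell types in the Kcnj15 value was not tested.

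**Figure D2:**
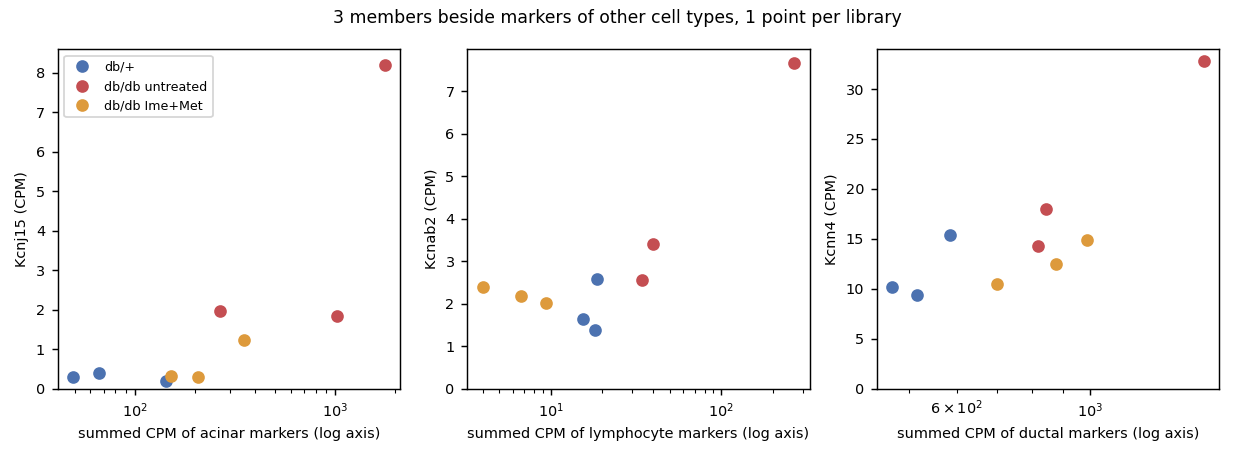
Levels of Kcnj15, Kcnab2 and Kcnn4 (y axes, CPM) against the summed CPM of acinar, lymphocyte and ductal markers (x axes, log scale), 1 point per library coloured by group. The 3 pairs were chosen after the values were seen; in each, the untreated db/db library with the most marker RNA also had the highest level of the channel gene (8.19, 7.67 and 32.8 CPM).

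Kcnj2 and Kcnj8 were also called higher. Kcnj2, of the same strongly rectifying class as Kcnj12, held 1.49, 1.32 and 1.69 CPM in db/+ and 4.31, 2.46 and 2.63 CPM in untreated db/db islets (log2 fold change 1.05 ± 0.29, adjusted p = 0.00714), with no overlap. Kcnj8, the pore of the vascular ATP-sensitive channel found in pericytes and smooth muscle, held 1.49, 1.43 and 0.794 CPM against 3.73, 2.39 and 3.34 CPM (log2 fold change 1.34 ± 0.39, adjusted p = 0.00848). Beside it, 0 of 8 pericyte and smooth muscle markers were called, and their summed level was 257 to 292 CPM in db/+ and 207 to 372 CPM in untreated db/db libraries. Abcc9, the receptor subunit that pairs with Kcnj8, showed a log2 fold change of 0.29 ± 0.21 (adjusted p = 0.233). The G protein-gated Kcnj3 and the rectifier Kcnj4 had log2 fold changes of 0.57 and 0.90 with adjusted p-values of 0.147 and 0.0565. Without db/+ replicate 3 Kcnj3 was called higher (1.07, adjusted p = 0.0119), and Kcnj4 was called higher in 5 of 18 alternatives, with adjusted p-values down to 0.02.

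Kcnj6, a G protein-gated inward rectifier, depended on which transcript model stood for the gene. The row with the highest total, a predicted model of 18878 bases, held 140, 196 and 188 counts in db/+ and 221, 302 and 185 counts in the larger untreated db/db libraries (log2 fold change -0.12 ± 0.17, adjusted p = 0.569). The curated model of 3086 bases held 8, 10 and 13 counts in db/+, 55, 91 and 53 in untreated and 85, 89 and 99 in treated db/db libraries. All 4 curated models of Kcnj6 were higher in untreated db/db islets, with log2 ratios of group means from 1.28 to 2.22. When each gene was represented by its highest curated row, an alternative added after the data were seen, Kcnj6 was called higher in untreated db/db (log2 fold change 2.10, adjusted p = 2.69e-05) and in treated db/db islets (log2 fold change 2.53) against db/+. The long model is several times the length of the curated ones, and Gm41505 has exons overlapping Kcnj6 on the opposite strand; their part in the difference was not tested.

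Two-pore genes, which carry the leak current, held 9 tested members, of which 5 were higher, 2 lower and 2 not called in untreated db/db islets. Kcnk16, whose channel TALK-1 is enriched in islet cells, had the highest length-scaled level in db/+ islets, 66.9 ± 15.1 CPM per kilobase (SD, n = 3), ahead of Kcnj11 at 56.0 ± 6.77. Kcnip1 followed at 44.7 ± 8.14. The SDs of these neighbours overlapped, but the genes were measured in the same libraries and their order was the same in each of the 3 db/+ libraries: Kcnk16 held 24.1, 19.8 and 18.9% of the length-scaled counts of the 60 genes, Kcnj11 18.3, 17.2 and 17.4%, and Kcnip1 15.1, 14.4 and 12.5%. After a wide step came Kcnk1 at 16.9 ± 2.41 and Kcnh2 at 15.9 ± 1.23 CPM per kilobase, a difference smaller than either SD.

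Kcnk16 held 198, 148 and 129 CPM in db/+ islets, 222, 306 and 268 in untreated and 289, 279 and 314 in treated db/db islets. All 6 db/db libraries lay above all 3 db/+ libraries, and the db/db groups overlapped. The log2 fold change of Kcnk16 was 0.74 ± 0.16 (adjusted p = 0.0013) in untreated and 0.89 ± 0.16 (adjusted p = 0.000308) in treated db/db against db/+ islets. The ratio of Kcnk16 to Kcnj11, both scaled by length, was 1.32, 1.15 and 1.08 in db/+, 2.54, 3.02 and 2.62 in untreated and 2.54, 2.57 and 3.23 in treated libraries, so that the leak channel transcript stood further above the ATP-sensitive pore in every db/db library.

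Kcnk1, another two-pore channel (TWIK-1), held 44.3, 33.2 and 39.2 CPM in db/+ and 59.8, 80.6 and 73.2 CPM in untreated db/db islets, with no overlap (log2 fold change 0.87 ± 0.12, adjusted p = 6.19e-05). The acid-sensitive Kcnk3 and Kcnk5 (TASK-1 and TASK-2) fell. Kcnk3 held 21.1, 24.6 and 26.0 CPM in db/+, 8.33, 12 and 7.54 in untreated and 3.81, 7.39 and 6.32 CPM in treated db/db islets, 3 ranges that did not overlap. Its log2 fold change was -1.36 ± 0.23 in untreated (adjusted p = 0.000278) and -2.03 ± 0.23 in treated db/db against db/+ islets (adjusted p = 1.36e-05). Kcnk5 held 20.5, 21.0 and 21.6 CPM in db/+ and 7.97, 7.43 and 10.3 CPM in untreated db/db islets (log2 fold change -1.29 ± 0.17, adjusted p = 3.39e-05). Their relative Kcnk9 (TASK-3) rose by 1.95 ± 0.51 (adjusted p = 0.00594) from 1.49, 0.917 and 0.199 to 2.78, 2.96 and 4.41 CPM. The stretch-sensitive Kcnk10 (TREK-2) rose by 1.64 ± 0.24 (adjusted p = 6.13e-05), and the lysosomal Kcnk6 (TWIK-2) by 2.25 ± 0.38 (adjusted p = 0.0002). Below the floor, Kcnk4 (TRAAK) held 6, 11 and 11 counts in db/+ libraries, 0, 1 and 1 in untreated and 0, 1 and 0 in treated ones. The untreated level was 20.4-fold lower, with an exact 95% counting interval of 5.13 to 176 that covers counting error only.

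**Figure D3:**
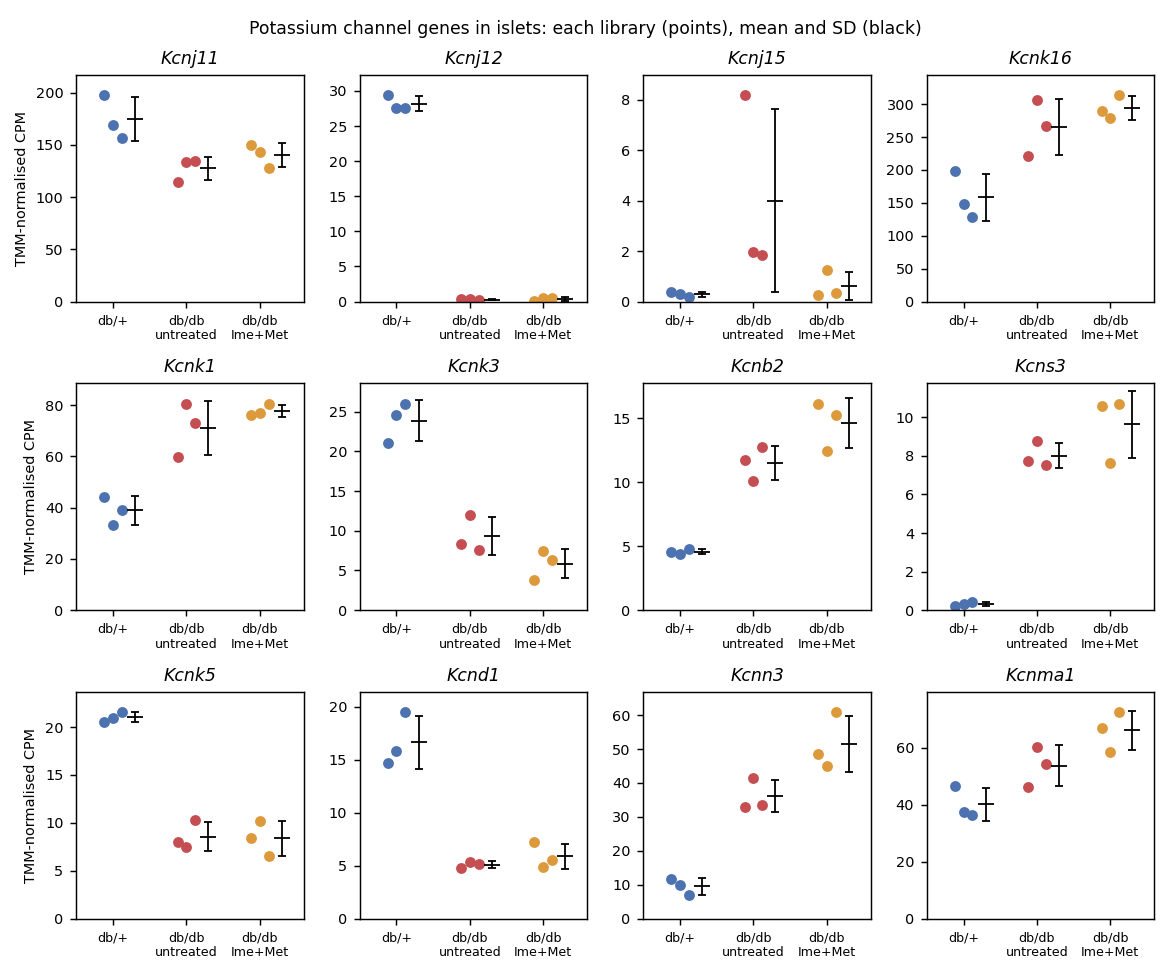
Levels of 12 potassium channel genes (y axes, TMM-normalised CPM from 0) in each library (points) with group mean and SD (black), in db/+, untreated db/db and treated db/db islets (x axes). Kcnj12, Kcnk5, Kcnd1 and Kcnk3 sit lower and Kcns3, Kcnb2, Kcnn3, Kcnk1 and Kcnk16 higher in all 6 db/db libraries than in the 3 db/+ libraries; in Kcnj15, 1 untreated library stands at 8.19 CPM.

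As a share of the length-scaled counts of the 60 genes, two-pore channels made up 31.2 ± 2.42% in db/+, 44.5 ± 1.59% in untreated and 44.0 ± 1.43% in treated db/db islets (SD, n = 3 each). Inward rectifiers made up 19.4 ± 0.472%, 13.3 ± 0.894% and 12.8 ± 1.22%. The db/+ libraries did not overlap the db/db libraries in either share. Kcnk16 alone accounted for 20.9 ± 2.82% in db/+ and 32.8 ± 1.55% in untreated db/db islets, and Kcnj11 for 17.6 ± 0.590% and 12.1 ± 0.555%. Such shares depend on how transcripts are handled: with all transcript rows added up, which weights a gene by its number of models, two-pore channels made up 5.54%, 9.30% and 9.0% in the 3 groups, and inward rectifiers 8.10%, 7.14% and 6.25%. The summed length-scaled level of the 60 genes was 289 to 347 CPM per kilobase in db/+, 299 to 376 in untreated and 364 to 387 in treated db/db libraries.

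**Figure D4:**
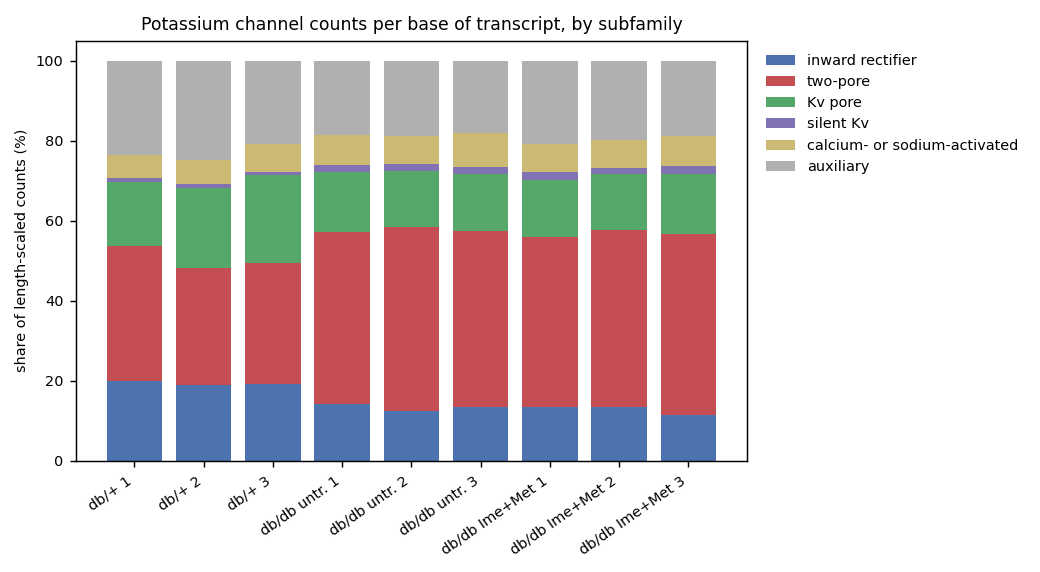
Share of each subfamily (y axis, percent, stacked) in the length-scaled counts of the 60 potassium channel genes, 1 bar per library (x axis). Two-pore channels take 29.3 to 33.9% of each db/+ library and 42.5 to 46.2% of each db/db library.

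Kv pore genes, which repolarise the membrane after each spike, were called higher in 6 cases, lower in 6 and not called in 8 of 20 tested. Kcnb2 (Kv2.2), a delayed rectifier reported in mouse delta cells, held 4.55, 4.38 and 4.77 CPM in db/+, 11.8, 10.1 and 12.7 in untreated and 16.1, 12.4 and 15.3 in treated db/db islets. Db/+ and db/db libraries were well apart, at a log2 fold change of 1.33 ± 0.16 (adjusted p = 1.52e-05). Of 4 delta cell markers, 2 were called lower and 0 higher.

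The A-type channel Kcnd1 (Kv4.1), which inactivates quickly, held 14.7, 15.8 and 19.5 CPM in db/+ and 4.75, 5.36 and 5.19 CPM in untreated db/db islets (log2 fold change -1.70 ± 0.18, adjusted p = 5.06e-06). Treated islets, at 7.20, 4.91 and 5.49 CPM, overlapped the untreated ones and not db/+.

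Several Kv pore genes rose from low levels, and Kcnh1 from a higher one. Kcnc1, Kcna5, Kcnd3 and Kcnq5 met the floor only through db/db libraries, so the floor favoured a rise in them. Kcnc1 (Kv3.1) had 0, 2 and 1 counts in db/+ libraries and 16, 30 and 11 counts in untreated db/db libraries, a ratio of 13.1 with a counting interval of 4.25 to 65.2, and it passed the test (adjusted p = 0.00056). Kcna5 (Kv1.5) rose by 1.75 ± 0.43 (adjusted p = 0.00327) from 0.198, 0.510 and 0.397 to 1.02, 1.51 and 1.21 CPM. Kcnd3 (Kv4.3) rose by 1.40 ± 0.47 (adjusted p = 0.0188), a call lost in 3 of 17 alternatives, with DESeq2 (adjusted p = 0.0532) and without db/+ replicate 1 (0.0557) or untreated replicate 1 (0.0541). The ether-a-go-go channel Kcnh1 rose by 1.47 ± 0.29 (adjusted p = 0.00249) from 18.3, 10.8 and 14.0 to 32.5, 29.4 and 57.4 CPM. Untreated replicate 3, which held the highest Kcnh1 level, also held the most ductal marker RNA (1542 CPM against 844 and 820 CPM in the other 2); without it the log2 fold change was 1.12 (adjusted p = 0.000451). Kcnq5 met the floor but not the filter of the test, with 1, 0 and 1 counts in db/+ and 11, 10 and 3 in untreated db/db libraries, a ratio of 8.25 with a counting interval of 2.05 to 72.

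The ERG channels, which slow firing late in a burst, had small fold changes. Kcnh2 held 67.8, 64.6 and 75.1 CPM in db/+ and 58.3, 73.0 and 58.2 CPM in untreated db/db islets (log2 fold change -0.13 ± 0.12, adjusted p = 0.337). Kcnh6 was called lower (-0.38 ± 0.15, adjusted p = 0.0385), but the call was lost in 10 of 18 alternatives, among them those without db/+ replicates 2 or 3, any untreated replicate or treated replicate 2. A pair of relatives of the ELK branch were called lower: Kcnh3 by -0.89 ± 0.21 (adjusted p = 0.00242), whose exons overlap those of Mcrs1 on the other strand, and Kcnh4 by -1.43 ± 0.46 (adjusted p = 0.0152). Kcnh8, of the same branch, was not called (-0.10 ± 0.26, adjusted p = 0.741) and ranged from -0.233 to 0.507 over 18 alternatives. The Kcnh4 call was lost without db/+ replicate 1 (-1.33, adjusted p = 0.0539), untreated replicate 2 (-1.33, adjusted p = 0.0522) or untreated replicate 3 (-1.04, adjusted p = 0.0618). Kcnh4 held 1.58, 1.53 and 1.59 CPM in db/+ islets, 1.02, 0.504 and 0.213 in untreated and 0.141, 0.196 and 0.194 in treated ones. These CPM ranges descended without overlap. In counts they were 16, 15 and 16, then 14, 8 and 3, then 2, 3 and 3. Untreated replicate 3 and treated replicates 2 and 3 thus held equal counts, and their CPM differed only through library size.

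Silent Kv subunits join other Kv pores and alter their gating. Kcns3 (Kv9.3) held 0.198, 0.306 and 0.397 CPM in db/+ islets, 7.75, 8.76 and 7.54 CPM in untreated and 10.6, 7.65 and 10.7 CPM in treated db/db islets. No db/+ library came near any db/db library, and the db/db groups overlapped. Kcns3 met the floor only through db/db libraries, so the floor favoured a rise in it. Its log2 fold change of 4.70 ± 0.29 (adjusted p = 1.17e-07) was the highest of the 59 genes, and it was 4.96 ± 0.29 in treated db/db against db/+ islets (adjusted p = 5.91e-08). Leaving out any 1 library kept the untreated value between 4.56 and 4.98. Kcng3 (Kv6.3), of the same kind, was lower in untreated db/db islets (22.3, 22.5 and 16.3 against 15.8, 15.9 and 12.6 CPM, log2 fold change -0.46 ± 0.14, adjusted p = 0.0126). The Kcng3 call was lost with the highest curated row (-0.20, adjusted p = 0.733) and without db/+ replicate 1 (-0.30, adjusted p = 0.113), db/+ replicate 2 or untreated replicate 3. Kcnf1 (Kv5.1) showed a log2 fold change of 0.02 ± 0.33 (adjusted p = 0.966).

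Calcium-activated channels open as calcium enters. The small-conductance subunits parted: Kcnn3 (SK3) held 11.8, 9.79 and 6.95 CPM in db/+, 33.0, 41.5 and 33.6 in untreated and 48.7, 45.1 and 60.9 CPM in treated db/db islets, 3 ranges that did not overlap. Its log2 fold change was 1.92 ± 0.18 in untreated (adjusted p = 3.73e-06) and 2.44 ± 0.18 in treated db/db against db/+ islets (adjusted p = 4.99e-07). Kcnn1 (SK1) fell by 0.87 ± 0.19 on the log2 scale (adjusted p = 0.00157), from 21.8, 16.7 and 21.1 to 8.99, 14.1 and 9.46 CPM. The length-scaled ratio of Kcnn3 to Kcnn1 was 0.376, 0.406 and 0.229 in db/+ and 2.55, 2.04 and 2.47 in untreated db/db libraries, so the order of the 2 genes turned in every library. Kcnn4, the intermediate-conductance channel of epithelia and blood cells, was called higher (0.89 ± 0.33, adjusted p = 0.0406), but not without untreated replicate 3 (0.47, adjusted p = 0.0857), which held 32.8 CPM of Kcnn4 and the most ductal marker RNA. The call was also lost without db/+ replicates 1 or 2 or treated replicate 1, without the filter and with the 6 libraries of the comparison alone, where the adjusted p reached 0.124. Kcnu1, the sperm channel SLO3, fell by 1.24 ± 0.24 (adjusted p = 0.000667).

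Kcnma1, the pore of the large-conductance BK channel, held 46.6, 37.3 and 36.4 CPM in db/+, 46.2, 60.5 and 54.4 in untreated and 67.2, 58.7 and 72.5 CPM in treated db/db islets. Db/+ and untreated libraries overlapped narrowly, at a log2 fold change of 0.42 ± 0.13 (adjusted p = 0.0124), which was no longer called without untreated replicate 2 (0.34, adjusted p = 0.053). The transcript rows of Kcnma1 did not move together. A predicted model of 3904 bases held 197, 202 and 228 counts in db/+, 44, 76 and 72 in untreated and 76, 63 and 77 in treated db/db libraries, a log2 ratio of -2.23. A curated model of 4941 bases held 107, 107 and 113 counts, then 322, 513 and 440, then 523, 517 and 676, a log2 ratio of 1.41. The ranges of db/+ and db/db libraries did not overlap in either model, and they moved in opposite directions. These ratios of rows carry no test, and reads shared between models appear to be counted in each.

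Among 12 auxiliary genes tested, 3 were higher, 2 lower and 7 not called. Kcnip1, a calcium-binding partner of Kv4 channels and the auxiliary gene with the highest level, held 118, 102 and 81.3 CPM in db/+ and 71.0, 95.8 and 91.2 CPM in untreated db/db islets (log2 fold change -0.22 ± 0.14, adjusted p = 0.183); without db/+ replicate 3 it was called lower (-0.32, adjusted p = 0.0413). Kcnip4, of the same family, was called lower in its highest row (-1.54 ± 0.19, adjusted p = 1.94e-05), a predicted model of 141950 bases that held 140, 245 and 197 counts in db/+ and 95, 112 and 84 counts in untreated db/db libraries. The 5 curated models, of 2188 to 2403 bases, went the other way: that of 2403 bases held 36, 43 and 37 counts in db/+, 88, 109 and 74 in untreated and 99, 124 and 127 in treated db/db libraries. Represented by its highest curated row, Kcnip4 was called higher in untreated (0.66, adjusted p = 0.00841) and in treated db/db islets (0.99, adjusted p = 0.000495) against db/+. Adding up all its rows gave 0.30 (adjusted p = 0.127) for untreated db/db islets. Kcnip4 overlaps 2 genes on the opposite strand, and the direction of this gene thus depends on the model counted.

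**Figure D5:**
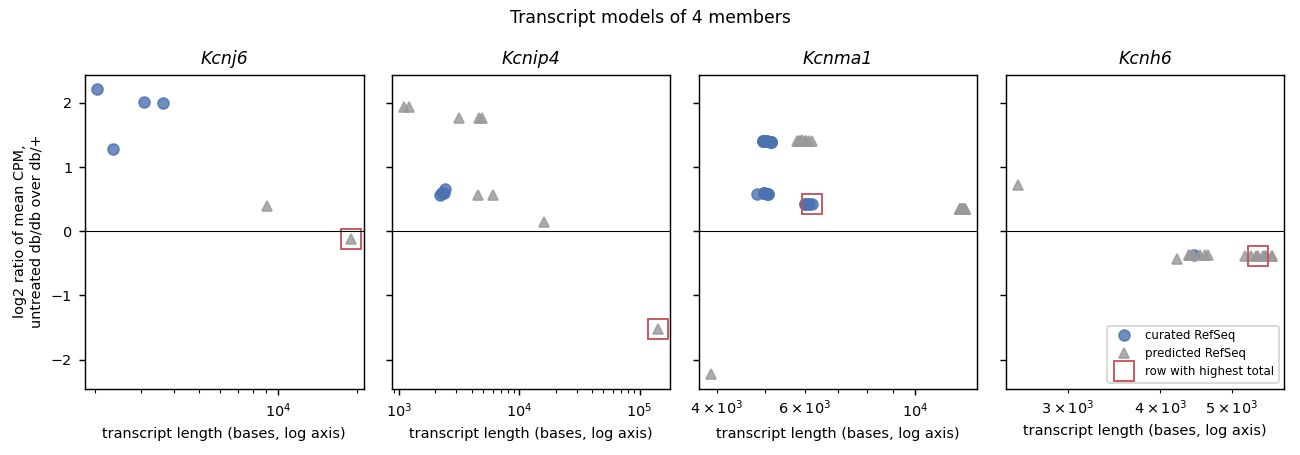
Log2 ratio of mean CPM in untreated db/db over db/+ islets (y axis) for each transcript model with at least 90 counts over the 9 libraries, by its length (x axis, bases, log scale), for Kcnj6, Kcnip4, Kcnma1 and Kcnh6. Circles are curated and triangles predicted RefSeq models, and a square marks the row with the highest total; in Kcnj6 and Kcnip4 that row (-0.12 and -1.53) lies below the curated models.

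Across 46 genes with at least 2 such transcript rows, the log2 ratios of the rows spanned more than 1 in 6 genes: Kcnc2, Kcnh6, Kcnip4, Kcnj6, Kcnma1 and Kcnq1. In 4 of these, Kcnc2, Kcnh6, Kcnip4 and Kcnma1, some row was above 0.25 and another below -0.25. Kcnq1, a slow delayed rectifier, shares exonic sequence with the antisense Kcnq1ot1 and was not called in untreated db/db islets (-0.18 ± 0.34, adjusted p = 0.654). In treated db/db against db/+ islets Kcnq1 was called lower (-0.97 ± 0.35, adjusted p = 0.0263), a call lost in 3 of 18 alternatives. The rows of Kcnj12 lay between -6.15 and -6.14 and those of Kcns3 between 4.24 and 4.34. For these 2 genes the choice of model moved the ratio by 0.01 and 0.1.

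The BK partner Kcnmb2, which makes the channel inactivate, held 74.4, 69.1 and 57.8 CPM in db/+, 62.3, 75.9 and 70.4 in untreated and 87.2, 99.1 and 101 CPM in treated db/db islets. Its log2 fold change was 0.05 ± 0.11 in untreated db/db against db/+ (adjusted p = 0.706), but 0.84 with the highest curated row (adjusted p = 0.00677) and 0.77 with rows added up (adjusted p = 0.00699). The smooth muscle partner Kcnmb1 rose by 1.03 ± 0.26 (adjusted p = 0.00438). Kcne4, an inhibitory partner of Kv channels, rose by 2.67 ± 0.76 (adjusted p = 0.0101) from 0, 0.408 and 0.794 to 2.85, 2.96 and 1.99 CPM. Only db/db libraries brought Kcne4 to the floor, which favoured a rise. Kcnab2, a cytoplasmic Kv subunit also expressed by blood cells, rose by 1.28 ± 0.40 (adjusted p = 0.0142) and held 7.67, 3.40 and 2.56 CPM in the untreated db/db libraries, of which the first also held the most lymphocyte marker RNA (268 against 39.8 and 34.2 CPM). Of the 12 lymphocyte markers, 9 were called higher, and 4 were at 0 in every db/+ library; their part in Kcnab2 was not tested. Without that library the log2 fold change of Kcnab2 was 0.69 (adjusted p = 0.0813), and the call was also lost without db/+ replicate 2 (adjusted p = 0.0585) or 3 (adjusted p = 0.0555). Kcnab3 fell by 0.65 ± 0.23 (adjusted p = 0.0314) and overlaps its antisense gene Kcnab3os; its call was lost in 8 of 18 alternatives, among them those without db/+ replicates 1 or 2, untreated replicates 1 or 3 or treated replicate 2, with values down to -0.42.

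Between treated and untreated db/db islets no potassium channel gene was called by edgeR, against 0.179% of all genes (0.00597% called higher and 0.173% lower). At an unadjusted p under 0.05 there were 16 of the 59 genes, 9 higher and 7 lower in treated islets, against 17.4% of all genes (9.89% higher and 7.52% lower). DESeq2 called 3 of the 59, Kcnk12 and Kcnmb2 higher and Kcnj15 lower, against 3.82% of all genes with an adjusted p in that tool (0.822% higher and 3% lower), a share near that of the members. Limma-voom called 0 of the 59 and 0.0597% of all genes. The median log2 fold change was 0.14 over the 59 genes and 0.07 over all genes, and the groups did not overlap in 15 of the 59 genes, against 27.6% of all genes.

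The genes with the smallest p are described for their values, chosen after these were seen. Kcnk12, a two-pore subunit (THIK-2) that stays largely inside the cell, held 13.1, 11.5 and 12.7 CPM in untreated and 17.4 CPM in each of the 3 treated libraries, against 14.8, 14.5 and 14.8 CPM in db/+. In this row the treated libraries lay above all others, at a log2 fold change of 0.49 ± 0.11 against untreated (adjusted p = 0.0779). The place of Kcnk12 against db/+ depended on the processing. Treated against db/+ islets it ranged from -0.105 to 0.29 over 18 alternatives, with 1 change of sign and 2 calls. In untreated db/db against db/+ islets it was called lower with rows added up (-0.37, adjusted p = 0.00879) or the highest curated row (-0.56, adjusted p = 0.00372). Kcnmb2, with the values given above, was also higher in all 3 treated libraries than in any other (0.46 ± 0.11, adjusted p = 0.0952); without untreated replicate 2 the adjusted p was 0.0491. Kcng3, at 20.7, 22.4 and 21.2 CPM, lay above the untreated libraries and within the db/+ range (0.54 ± 0.14, adjusted p = 0.103). Kcnj15 lay below the untreated libraries (-2.66 ± 0.72, adjusted p = 0.13), and without untreated replicate 1 its value was -1.60 (adjusted p = 0.265). Summed markers in the treated libraries were 207, 352 and 151 CPM for acinar and 6.70, 9.35 and 4.0 CPM for lymphocyte genes. Kcnn3 lay above the untreated range (0.51 ± 0.16, adjusted p = 0.156), on the far side from db/+, and Kcnk3 below it (-0.67 ± 0.24, adjusted p = 0.193), also on the far side. For Kcnj12 (0.41 ± 0.50, adjusted p = 0.694), Kcns3 (0.27 ± 0.19, adjusted p = 0.48), Kcnk16 (0.15 ± 0.16, adjusted p = 0.639) and Kcnj11 (0.13 ± 0.11, adjusted p = 0.553) the treated and untreated libraries overlapped.

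Treated db/db islets were also set against db/+ islets, a comparison that shares its libraries with both others. Of the 59 genes, 32 were called (54.2%, against 65.2% of all genes), 18 higher and 14 lower (32.8% and 32.5% of all genes), and 33 did not overlap, against 71% of all genes. By subfamily, two-pore genes had 5 called higher and 3 lower of 9, Kv pore genes 6 and 6 of 20, inward rectifiers 2 and 2 of 8, calcium- or sodium-activated genes 2 and 2 of 7, auxiliary genes 2 and 1 of 12 and silent genes 1 and 0 of 3. Kcnmb2 was called here (0.51 ± 0.11, adjusted p = 0.00149), and more than 1.5 times as large with rows added up (1.16, adjusted p = 0.000652) or the highest curated row (1.31, adjusted p = 0.000454). Kcnh4 showed a log2 fold change of -3.07 ± 0.54 (adjusted p = 0.000265), from 2, 3 and 3 counts in treated and 16, 15 and 16 in db/+ libraries.

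Partners of the channels and other genes of membrane excitability were counted from a list of 24, of which 19 were tested. In untreated db/db against db/+ islets 5 were higher, 7 lower and 7 not called. Of all genes 31.3% were called higher and 32% lower, so these counts were near the background. Atp1b1, a subunit of the sodium pump, which maintains the potassium gradient, rose by 0.57 ± 0.15 (adjusted p = 0.00454). The pacemaker channel genes parted: Hcn3 fell by 1.47 ± 0.12 (adjusted p = 7.32e-07) and Hcn2 by 0.74 ± 0.11 (adjusted p = 9.73e-05), whereas Hcn4 rose by 0.47 ± 0.13 (adjusted p = 0.00571), or 0.31 without untreated replicate 2 (adjusted p = 0.0228). Dpp10, an auxiliary protein of Kv4 channels, fell by 1.54 ± 0.33 (adjusted p = 0.002), while Dpp6, of the same kind, showed a log2 fold change of -0.20 ± 0.20 (adjusted p = 0.402). Stx1a, a membrane fusion protein that also binds Kv channels, fell by 1.0 ± 0.16 (adjusted p = 0.000115). Against untreated db/db islets, 0 of the 19 were called in treated ones (0.179% of all genes). Against db/+, 5 were higher and 5 lower in treated islets (32.8% and 32.5% of all genes).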

How the data were processed

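Per the labels' protocols, RNA was extracted with spin columns and strand-preserving libraries were prepared. The submitters' processing notes name cutadapt 1.9.1, HISAT2 2.2.1, featureCounts 2.0.0 and build GRCm39. The strand setting of the counting is not given in the sources used here, so genes that overlap others or have an antisense partner are uncertain; 21 of the 60 genes at the floor share exonic sequence with another gene in GENCODE M21. Per the file headers, the authors deposited unnormalised read counts for 139023 RefSeq transcripts.

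The transcript of largest total stood for each gene and was a predicted model in 30 of the 60 genes. Rows of a gene held nearly equal counts (median lowest to highest ratio 0.89 over 51 genes). Low genes were removed with filterByExpr, and 16761 were tested in R 4.3.3 with edgeR 4.0.16 (quasi-likelihood, TMM, 3 group means over 9 libraries, no block), after the script was tested on simulated data. Unless another tool is named, adjusted p-values are those of this test. Limma 3.58.1 and DESeq2 1.42.0 served as alternatives. Totals of 10292664 to 15281806 counts limit genes of a few counts; ratios of counts carry exact 95% intervals for counting error only. Python 3.11.15, pandas 2.3.3 and matplotlib 3.10.9 were used for summaries and plots.

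Promoters came from a RefSeq table of build GRCm38.p6 and were matched by symbol; the counts use GRCm39. Named genes were the fixed islet channels (26 of 28 at the floor), up to 10 called genes with the largest change in each direction and the 5 with the highest length-scaled level; the remaining genes given with values were named after these were seen. The members and lists were chosen with earlier results of these data known. The motif, the look at single transcript rows, the curated-row alternative and the marker pairs were chosen after the values were seen. Single values of some genes are not reported here, while counts and shares cover all members.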

Additional observations from a re-analysis of the deposited data

How the results depend on the processing

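The counts of potassium channel genes called kept within 1.5 times of those reported under every alternative in both comparisons with db/+ islets. Between treated and untreated db/db islets the count of 0 became 2 higher and 1 lower with DESeq2, which called 3.82% of all genes there against 0.179% with edgeR; leaving out 1 library gave 0 to 1 higher and 0 lower. Of 2263 repeated fold changes of named genes, 2136 kept direction and side of the threshold, 68 lost and 10 gained the call, and 49 changed sign, 45 of these in values not called to begin with. The other 4 were Kcnip4. Correlations were -0.427 to 0.058 between same-numbered libraries and -0.304 to 0.437 between differently numbered ones. With 3 libraries per group these values cannot exclude that samples were paired. With the replicate block the calls were 20 higher and 15 lower for untreated db/db against db/+ islets. They were 17 and 14 in treated db/db against db/+ islets, with 0 between the db/db groups. Upper-quartile factors moved the median of all genes by 0.107 in untreated db/db against db/+ islets, where 22 genes were then higher and 13 lower. The cause of the sign changes was not tested.

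In untreated db/db against db/+ islets, the highest curated row, an alternative added after seeing the data, gave 0.66 for Kcnip4 and 2.10 for Kcnj6, and adding transcripts gave 0.30 for Kcnip4, 0.55 for Kcnj6 and 0.17 for Kcnq1. Leaving out 1 library gave -0.246 to 0.019 for Kcnj6, -0.008 to 0.219 for Kcnmb2, -0.461 to 0.093 for Kcnn2 and -0.565 to 0.106 for Kcnq1. In treated against untreated db/db islets, Kcnd3 was -0.017 with the 6 libraries alone, -0.014 without a filter, -0.011 with transcripts added and -0.007 with upper-quartile factors, and Kcnn2 was -0.02 with transcripts added. Leaving out 1 library gave -0.16 to 0.23 for Kcnd3, -0.216 to 0.014 for Kcnk10, -0.20 to 0.13 for Kcnk5, -0.031 to 0.351 for Kcnn1 and -0.12 to 0.37 for Kcnn2. In treated db/db against db/+ islets, the highest curated row gave 0.99 for Kcnip4 and 0.00 for Kcnip1, adding transcripts gave 0.53 for Kcnip4 and -0.11 for Kcnip1, and Kcnn2 was 0.065 with limma-voom and 0.03 with the replicate block. Leaving out 1 library gave -0.038 to 0.159 for Kcnh2, -0.185 to 0.052 for Kcnh6, -0.15 to 0.16 for Kcnip1, -0.16 to 0.50 for Kcnj3, -0.43 to 0.13 for Kcnn2 and -0.032 to 0.336 for Kcnn4.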
